A study of Mus musculus with 4 samples.

Results

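B cell identity and antigen receptor signalling genes were followed across 4 arrays of sorted mouse spleen cells. The list holds 34 genes, and its members were taken as every probe of the value table whose only gene symbol is on the list. The probe annotation gave 68 such probes for 32 of the 34 genes, among 19057 genes in all. Cd79a and Lyn had no probe under their symbol, so their expression was not analysed here. Each gene was represented by its brightest probe, and 31 members, all with a probe except Pax5, had a mean above background and entered the comparisons with 12419 genes tested in all.

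The cells were sorted as marginal zone macrophages (low CD11b, no I-Ab, none of the macrophage antigen encoded by Adgre1, surface SIGN-R1) from BXD2 mice, a recombinant inbred strain that develops lupus-like autoimmunity. Each array held RNA of cells pooled from 2 mice aged 2.5 months, killed 10 hours after an injection. The groups were 1 array of BXD2-Ifnar-/- mice, which lack the type I interferon receptor and were given PBS, 1 array of BXD2 mice given 25 µg of the lymphotoxin β receptor decoy sLTβR-Fc intravenously, and 2 arrays of BXD2 mice given PBS, the controls of both comparisons. All groups share the BXD2 background, and a control Fc protein was given to none of them, so effects of lymphotoxin blockade and of injecting a protein cannot be told apart.

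The B cell antigen receptor is a surface immunoglobulin paired with Cd79a and Cd79b, whose tails are phosphorylated by Src family kinases such as Lyn and Blk and then recruit the kinase Syk. Syk acts through the adaptor Blnk and the kinase Btk on the phospholipase Plcg2, while surface coreceptors raise or restrain the signal. The transcription factors Ebf1 and Pax5 set up B cell identity, and in the spleen the complement receptor Cr2 is a known surface marker of marginal zone B cells, which lie next to marginal zone macrophages. Several genes of the list, among them Syk, Plcg2, Cd83 and the tetraspanins, are also transcribed in myeloid cells.

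The arrays give 1 linear intensity per probe, with background left in, so differences of dim genes are understated. Of 45281 probes, 23721 to 24330 exceeded the background limit of their array. As deposited, the upper quartile of intensities was 156 on the Ifnar-/- array, 146 on the sLTβR-Fc array and 188 and 179 on the controls, and values below are quantile normalised between arrays unless stated. Over genes, which are no independent replicates, the controls had r = 0.992, and they differed 2-fold or more in 0.25% of genes. Against the sort gate, H2-Ab1, which encodes the excluded I-A β chain, gave 16289 in Ifnar-/- cells, 9488 after sLTβR-Fc and 8662 and 8305 in the controls. Adgre1 gave 1017 and 631, against 629 and 306. Cd209b, which encodes SIGN-R1, gave 152 and 145, against 127 and 130.1, near the background limit of 111. Itgam, which encodes the CD11b that the gate took at low levels, gave 118 and 116, against 113 and 109, also near that limit. The labels do not say whether the control arrays came from different mice, and p-values below measure only the spread between these 2 arrays. That spread is drawn mostly from genes of like intensity and little from the gene itself (prior of 69.4 degrees of freedom against 1 residual).

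On the Ifnar-/- array the B cell genes stood above the controls. Of the 31 members 27 lay above both controls and 4 below both, against 44.1% and 34.9% of all genes tested, and their median log2 difference was 0.53, against 0.021 for all genes. In bulk RNA such as this, a change in the number of B cells and a change in RNA per cell cannot be told apart. In limma's fit over all genes with Benjamini-Hochberg adjustment to 0.05, 17 members were called higher and 1 lower, where 7.62% and 8.01% of all genes were called. The members called higher were the signalling genes Syk, Blk, Btk, Plcg2, Dapp1 and Swap70, the receptor chain Cd79b, the surface genes Cr2, Cd72, Cd83, Cd180, Cd53, Cd81 and Fcrla, and the transcription regulators Ebf1, Spib and Pou2af1. Swap70 alone was 2-fold or more above each control, a size reached by 0.668% of genes, and 0 members were 2-fold below each, against 1.1%. Without control 1, 4 members reached 2-fold higher. Only the control pair is replicated, and the fit gives the lone array their spread. A further fit raised dim values to the background limit and kept genes above it on at least 1 array. In this floored fit limma called 0 of 14654 genes here. Its unadjusted p was under 0.05 for 15 of 32 members and for 2865 of the 14654 genes.

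After sLTβR-Fc the members lay slightly below the controls as a set, and a few by much more. Of the 31 members 19 lay below both controls and 5 above both, against 35.7% and 45% of all genes, and the median log2 difference was -0.16, against 0.024 for all genes. limma called 8 members lower and 1 higher, where 7.96% and 10.5% of all genes were called. Those called lower were the scaffold gene Bank1, the complement receptor gene Cr2, Cd40, Bcl11a, Btla, Pou2af1, Cd79b and Blk, and the member called higher was the adaptor gene Dapp1. Bank1 was the 1 member 2-fold or more below each control, against 0.548% of genes, and 0 members were 2-fold above each, against 1.19%. Without control 1 the members above the remaining control numbered 11, and without control 2 those 2-fold lower numbered 2. The floored fit again called 0 genes. Its unadjusted limma p was under 0.05 for 7 of 32 members and for 3400 of 14654 genes.

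The size of these shifts depended on how the arrays were scaled, more so for sLTβR-Fc. In the values as deposited, the members' median was 0.24 on the Ifnar-/- array against -0.16 for all genes. There limma called 3 members higher and 2 lower, and 171 and 1668 of all 12377 genes. For sLTβR-Fc the members' median was -0.78 as deposited against -0.31 for all genes. Below both controls lay 31 of 31 members, with the share of all genes counted only after quantile normalisation. Called lower were 22 members, and 4568 of all 12377 genes. Relative to the median of all genes, the members lay 0.39 to 0.53 higher on the Ifnar-/- array and 0.15 to 0.48 lower on the sLTβR-Fc array over the scalings, filters and probe rules tried.

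**Figure D1:**
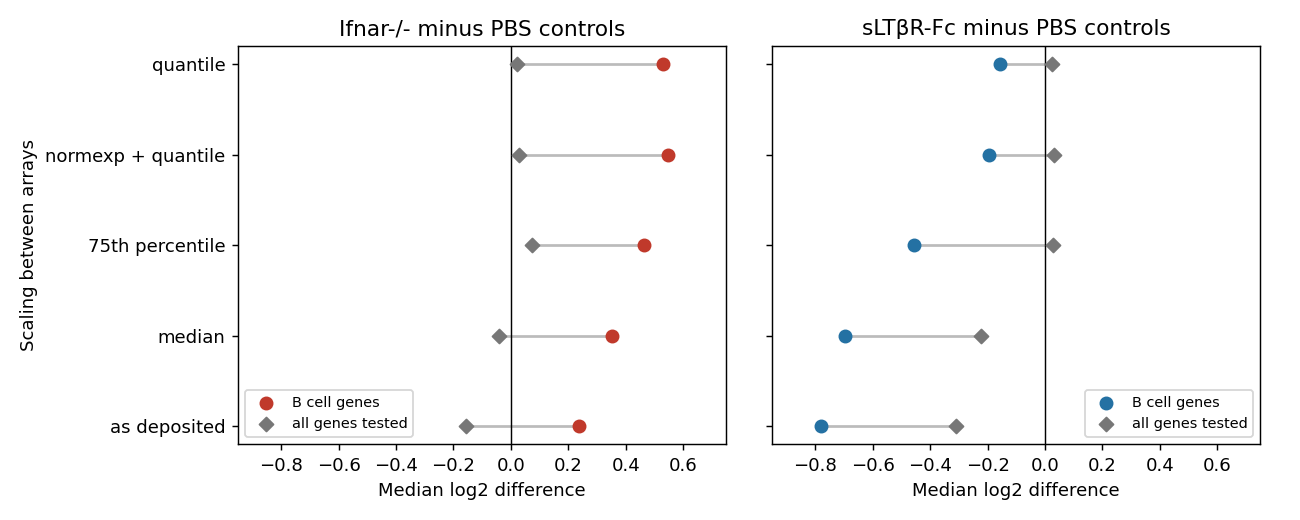
Median log2 difference of the B cell genes (circles) and of all genes tested (diamonds) from the mean of the 2 PBS controls, on the Ifnar-/- array (left) and the sLTβR-Fc array (right), under 5 ways of scaling the arrays (rows). The members' median lies above that of all genes in each row on the left (0.53 against 0.021 with quantile normalisation) and below it in each row on the right, where it ranges from -0.16 to -0.78.

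Upstream sequence is shown for the 5 members whose brightest probe lay at least 2-fold from the control mean: Syk, Swap70 and Spib (higher on the Ifnar-/- array) and Bank1 and Cr2 (lower on the sLTβR-Fc array). Each is the 250 bases before the start that RefSeq's promoter table gives, the outermost where it gives several, read 5′ to 3′ on the gene's strand (RefSeq, GRCm38.p6). RefSeq's bounds of some genes reach further upstream, so that all 250 bases of the Syk window, 161 of Cr2's, 75 of Bank1's and 16 of Spib's lie within them, and 0 of Swap70's. Capitals mark matches, on either strand, to the purine box GAGGAA bound by Spi-B and related Ets factors or to the Ets-IRF composite (GGAA and GAAA, 2 bases between them).
Syk, chr13:52583187-52583436, plus strand: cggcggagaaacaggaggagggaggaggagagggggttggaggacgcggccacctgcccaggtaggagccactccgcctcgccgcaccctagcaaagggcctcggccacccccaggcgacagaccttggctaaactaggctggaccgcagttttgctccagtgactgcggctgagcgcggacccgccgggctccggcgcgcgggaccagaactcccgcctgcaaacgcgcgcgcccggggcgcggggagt
Swap70, chr7:110221453-110221702, plus strand: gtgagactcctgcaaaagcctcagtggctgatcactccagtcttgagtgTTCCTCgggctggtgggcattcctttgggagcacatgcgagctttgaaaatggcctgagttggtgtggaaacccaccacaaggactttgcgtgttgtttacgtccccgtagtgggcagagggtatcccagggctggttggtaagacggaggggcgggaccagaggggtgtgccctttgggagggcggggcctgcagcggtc
Spib, chr7:44532072-44532321, minus strand: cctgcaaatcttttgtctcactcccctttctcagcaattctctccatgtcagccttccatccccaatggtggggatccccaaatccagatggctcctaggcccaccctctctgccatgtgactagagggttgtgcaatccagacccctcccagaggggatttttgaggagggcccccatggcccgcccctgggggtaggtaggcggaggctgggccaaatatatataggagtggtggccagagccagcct
Bank1, chr3:136326067-136326316, minus strand: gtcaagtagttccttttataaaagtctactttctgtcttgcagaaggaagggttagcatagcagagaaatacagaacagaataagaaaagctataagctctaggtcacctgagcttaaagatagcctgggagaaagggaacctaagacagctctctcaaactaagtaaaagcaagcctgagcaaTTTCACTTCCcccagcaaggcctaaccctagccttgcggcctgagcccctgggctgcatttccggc
Cr2, chr1:195176720-195176969, minus strand: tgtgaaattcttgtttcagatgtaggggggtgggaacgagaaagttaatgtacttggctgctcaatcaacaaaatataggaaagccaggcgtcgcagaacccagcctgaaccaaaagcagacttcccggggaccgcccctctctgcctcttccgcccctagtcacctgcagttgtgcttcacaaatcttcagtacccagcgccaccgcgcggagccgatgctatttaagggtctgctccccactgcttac

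Of these, Swap70 carried a purine box at position -201 from its start and Bank1 an Ets-IRF composite, TTTCACTTCC on the printed strand, at position -66. The Syk, Spib and Cr2 windows held none of the motifs searched, although a further Syk start carried a purine box. Promoter entries existed for 28 of the 34 genes. The purine box was found in 11 of them, among them Cd79a, Cd72, Fcrla, Ebf1 and Pou2f2, against 25.9% of 27025 genes with a promoter entry. The composite was found in 4 (Bank1, Dapp1, Bach2 and Pou2f2), against 2.68%. The octamer ATGCAAAT, bound by the member Pou2f2 with its coactivator Pou2af1, was found in Blnk and Vpreb3 (1.81% of genes) and the Ebf1 palindrome (TCCC and GGGA, 2 bases between them) in Cd22 (0.914%). The interferon response element (GAAA and GAAA, 2 bases between them), which can overlap the composite, was found in Ebf1 and Fcrla (3.46% of genes). A match describes the letters of the window and not binding.

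Of the receptor complex, Cd79b, the signalling chain measured here, was far above background. It read 13760 in Ifnar-/- cells, 6305 after sLTβR-Fc and 9386 and 9488 on the PBS controls. The Ifnar-/- value lay above and the sLTβR-Fc value below a control pair that differed by 0.016 on the log2 scale. The log2 differences were 0.54 ± 0.16 (SE, limma adjusted p = 0.00984) on the Ifnar-/- array and -0.58 ± 0.16 (limma adjusted p = 0.00508) on the sLTβR-Fc array. Its further probe, much dimmer, lay at 0.88 and -0.086. Vpreb3, a relative of the surrogate light chain of B cell precursors, read 276 (Ifnar-/-) and 213 (sLTβR-Fc), against 274 and 253 in the controls, and was called in neither comparison.

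Kinases and adaptors include the members with the largest differences on the Ifnar-/- array (Swap70 and Syk). There 6 of the 10 measured were called higher and 0 lower, against 7.62% and 8.01% of all genes. Syk, the kinase that docks on the phosphorylated receptor tails, read 540.3 in Ifnar-/- cells, 299 after sLTβR-Fc and 271 and 215 on the PBS controls. The Ifnar-/- array was the highest, at 2.24-fold the control mean (log2 1.16 ± 0.20, SE, limma adjusted p = 7.8e-06), while sLTβR-Fc lay at log2 0.31 (limma adjusted p = 0.298).

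Blk, a Src family kinase found mainly in B cells, read 4958 (Ifnar-/-) and 2143 (sLTβR-Fc), against 3181 and 2828 in the controls. It was 1.65-fold the control mean on the Ifnar-/- array (limma adjusted p = 0.00229) and 1.40-fold lower on the sLTβR-Fc array (log2 -0.48), where its limma adjusted p of 0.0493 was close to the threshold. Btk, the kinase that activates Plcg2, read 1446 in Ifnar-/- cells, 863 after sLTβR-Fc and 902 and 970.0 on the PBS controls. The Ifnar-/- value stood apart (log2 0.63 ± 0.20, SE, limma adjusted p = 0.019) and the others lay within 863 to 970.0. Plcg2, the phospholipase that opens the calcium signal, read 1560.5 (Ifnar-/-) and 846 (sLTβR-Fc), against 1022 and 804 in the controls. It was 1.72-fold the control mean on the Ifnar-/- array (limma adjusted p = 0.00297), and the sLTβR-Fc value lay between the controls.

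Blnk, the adaptor that brings Btk and Plcg2 to Syk, was close to background, at 163 in Ifnar-/- cells, 116 after sLTβR-Fc and 129.5 and 146 on the PBS controls. Neither difference was called (log2 0.25 and -0.24). Swap70, a phosphoinositide-binding regulator of the actin cytoskeleton in B cells, read 2748 (Ifnar-/-) and 1225 (sLTβR-Fc), against 1328 and 1056 in the controls. It was 2.32-fold the control mean on the Ifnar-/- array (log2 1.21 ± 0.20, SE, limma adjusted p = 1.75e-06), the highest of the members, and lay between the controls on the sLTβR-Fc array. As deposited, its sLTβR-Fc difference was -0.67 and called lower.

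Dapp1, an adaptor that binds products of PI3-kinase, read 1139.8 in Ifnar-/- cells, 1146 after sLTβR-Fc and 670.0 and 744 on the PBS controls. It was higher on both arrays, at log2 0.69 ± 0.20 on Ifnar-/- (SE, limma adjusted p = 0.00926) and 0.70 ± 0.20 on sLTβR-Fc (limma adjusted p = 0.00785). As deposited the sLTβR-Fc difference was -0.0060. Bank1, a scaffold for Lyn and the calcium channel of B cells, lay below the controls on both arrays. It read 1531 (Ifnar-/-) and 837 (sLTβR-Fc), against 2452 and 1748 in the controls, and the second control lay at log2 -0.49 from the first, the widest such gap of the members. After sLTβR-Fc it was 2.47-fold lower than the control mean (log2 -1.31 ± 0.20, SE, limma adjusted p = 5.09e-07), and on the Ifnar-/- array it lay at log2 -0.44 (limma adjusted p = 0.132). Pik3ap1, an adaptor for PI3-kinase, and Ralgps2, an exchange factor for Ral, were called in neither comparison, at log2 0.14 and 0.47 in Ifnar-/- cells and -0.18 and -0.28 after sLTβR-Fc.

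**Figure D2:**
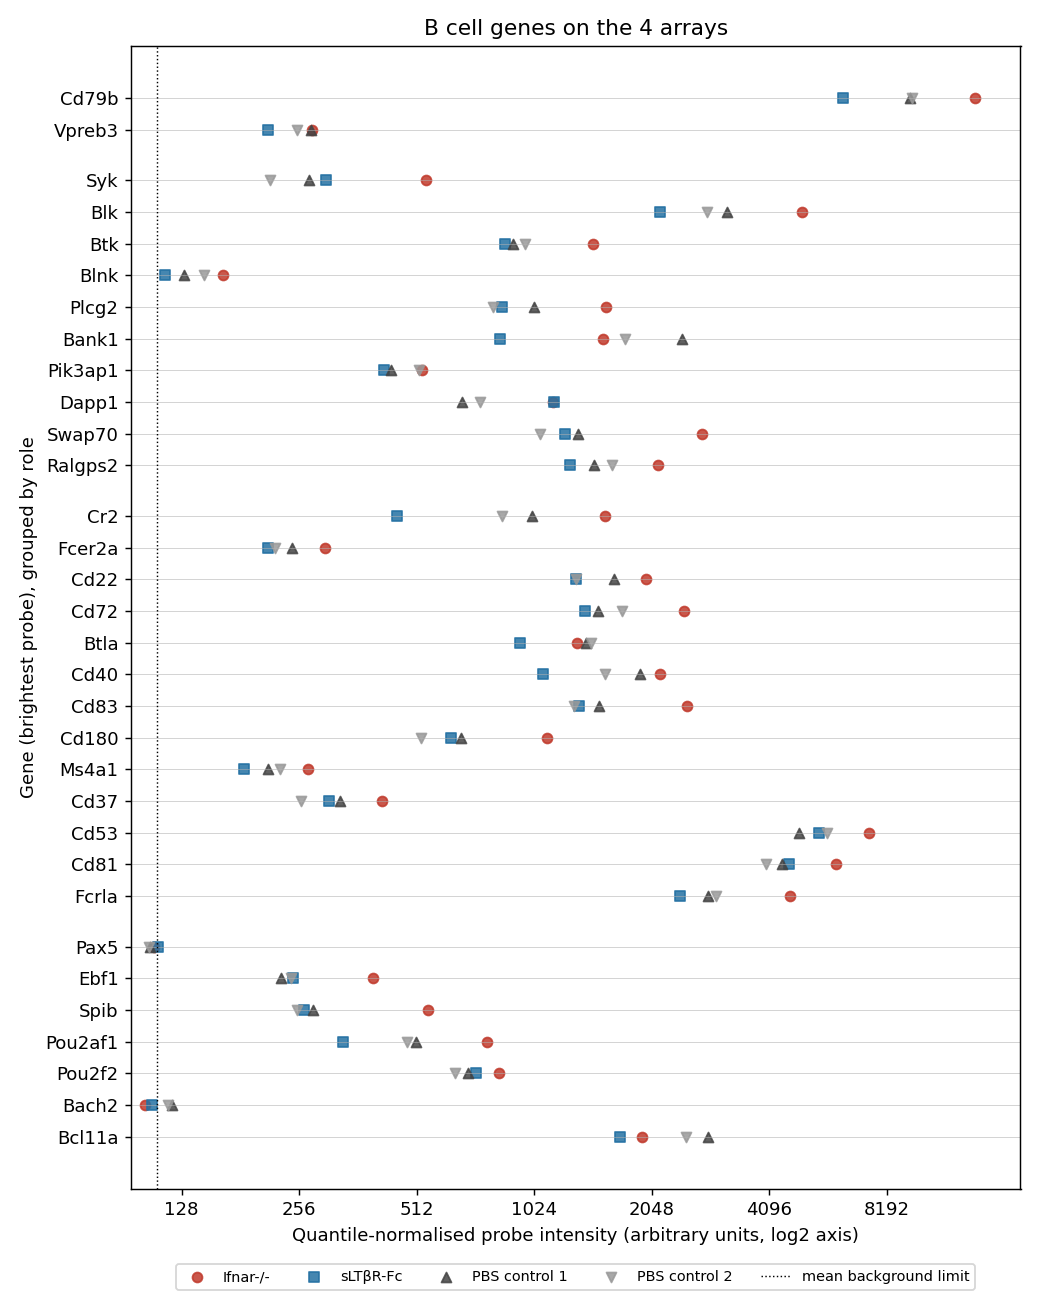
Quantile-normalised intensity (log2 axis, arbitrary units) of the brightest probe of 32 B cell genes, grouped by role, on the Ifnar-/- array (circles), the sLTβR-Fc array (squares) and the 2 PBS controls (triangles). The dotted line is the mean background limit of 111. The Ifnar-/- circle is the rightmost point for most genes, among the exceptions Bank1, Btla, Bach2 and Bcl11a, and Pax5 lies at or below the limit except on the sLTβR-Fc array.

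Among the surface genes, 12 of 13 lay above both controls on the Ifnar-/- array and 7 were called higher, against 44.1% and 7.62% of all genes. On the sLTβR-Fc array 8 lay below both and 3 were called lower, against 35.7% and 7.96%. Cr2, the complement receptor gene of the B cell coreceptor complex, had the widest span. It read 1554 in Ifnar-/- cells, 456 after sLTβR-Fc and 1007 and 845 on the PBS controls. Relative to the control mean it was 1.68-fold on the Ifnar-/- array (log2 0.75 ± 0.20, SE, limma adjusted p = 0.00449) and 2.02-fold lower on the sLTβR-Fc array (log2 -1.02 ± 0.20, limma adjusted p = 8.8e-05).

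Cd180, a Toll-like receptor relative, read 1106 (Ifnar-/-) and 627 (sLTβR-Fc), against 664 and 525 in the controls. Cd83, a surface marker of activated B cells and mature dendritic cells, read 2525 in Ifnar-/- cells, 1332 after sLTβR-Fc and 1498 and 1297 on the PBS controls. Both were called higher on the Ifnar-/- array, 1.87-fold (limma adjusted p = 0.000579) and 1.81-fold (limma adjusted p = 0.000615), with sLTβR-Fc between the controls. The inhibitory lectin gene Cd72 read 2474 (Ifnar-/-) and 1383 (sLTβR-Fc), against 1486 and 1716 in the controls. Fcrla, an intracellular Fc receptor relative, read 4628 in Ifnar-/- cells, 2414 after sLTβR-Fc and 2852 and 2993 on the PBS controls. Their Ifnar-/- log2 differences were 0.63 (limma adjusted p = 0.0147) and 0.66 (limma adjusted p = 0.00563), and neither was called on the sLTβR-Fc array.

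The tetraspanin genes Cd53 and Cd81, the second a partner in the coreceptor complex, were bright. Cd53 read 7372 (Ifnar-/-) and 5501 (sLTβR-Fc), against 4878 and 5751 in the controls. Cd81 read 6066 in Ifnar-/- cells, 4602 after sLTβR-Fc and 4403 and 4011 on the PBS controls. They were called higher on the Ifnar-/- array at log2 0.48 (limma adjusted p = 0.0424) and 0.53 (limma adjusted p = 0.0247), and Cd37, another tetraspanin, lay at 0.52 without being called (limma adjusted p = 0.0652).

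Cd40, the receptor for T cell help, and Btla, an inhibitory receptor, were called lower on the sLTβR-Fc array. Cd40 read 2144 (Ifnar-/-) and 1075 (sLTβR-Fc), against 1912 and 1549 in the controls. Btla read 1315 in Ifnar-/- cells, 941 after sLTβR-Fc and 1392 and 1433 on the PBS controls. Their sLTβR-Fc log2 differences were -0.68 ± 0.19 (SE, limma adjusted p = 0.00818) and -0.59 ± 0.19 (limma adjusted p = 0.0251), while on the Ifnar-/- array they lay at 0.32 and -0.10 and were not called. Ms4a1, which encodes CD20, read 270.0 (Ifnar-/-) and 185 (sLTβR-Fc), against 213 and 229 in the controls. It was called in neither comparison, nor were the inhibitory receptor gene Cd22 (log2 0.44 and -0.16) and Fcer2a, which encodes CD23 of follicular B cells (log2 0.36 and -0.13).

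The transcription factors were mixed. Spib, an Ets factor of B cells and plasmacytoid dendritic cells, read 546 in Ifnar-/- cells, 263 after sLTβR-Fc and 278 and 253 on the PBS controls. It was 2.06-fold the control mean on the Ifnar-/- array (log2 1.04 ± 0.20, SE, limma adjusted p = 4.95e-05) and lay between the controls on the sLTβR-Fc array. Ebf1, an early B lineage factor, read 396 (Ifnar-/-) and 247 (sLTβR-Fc), against 230.4 and 244 in the controls. Its Ifnar-/- log2 difference was 0.74 ± 0.19 (SE, limma adjusted p = 0.00376), and on this brightest probe the other 3 arrays lay close together. Pou2af1, the B cell coactivator of octamer factors, read 774 in Ifnar-/- cells, 331 after sLTβR-Fc and 510.2 and 483 on the PBS controls. It was higher on the Ifnar-/- array at log2 0.64 (limma adjusted p = 0.019) and lower on the sLTβR-Fc array at -0.58 (limma adjusted p = 0.031).

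Bcl11a, a zinc finger factor of lymphoid precursors, B cells and plasmacytoid dendritic cells, read 1937 (Ifnar-/-) and 1701 (sLTβR-Fc), against 2848 and 2507 in the controls. It was called lower on the sLTβR-Fc array (log2 -0.65 ± 0.19, SE, limma adjusted p = 0.00875), and on the Ifnar-/- array it lay at -0.46 (limma adjusted p = 0.0812). Pou2f2, the octamer factor itself, was called in neither comparison (log2 0.32 and 0.12). Bach2, a repressor of plasma cell differentiation, was above background on the controls only, at 121 and 118, at least 1.07-fold above the Ifnar-/- array and 1.07-fold above the sLTβR-Fc array. It was called lower on the Ifnar-/- array (limma adjusted p = 0.0255). Pax5 was above background on 1 array only, sLTβR-Fc, with 105 to 111 over the 4 arrays, so its level could not be compared.

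**Figure D3:**
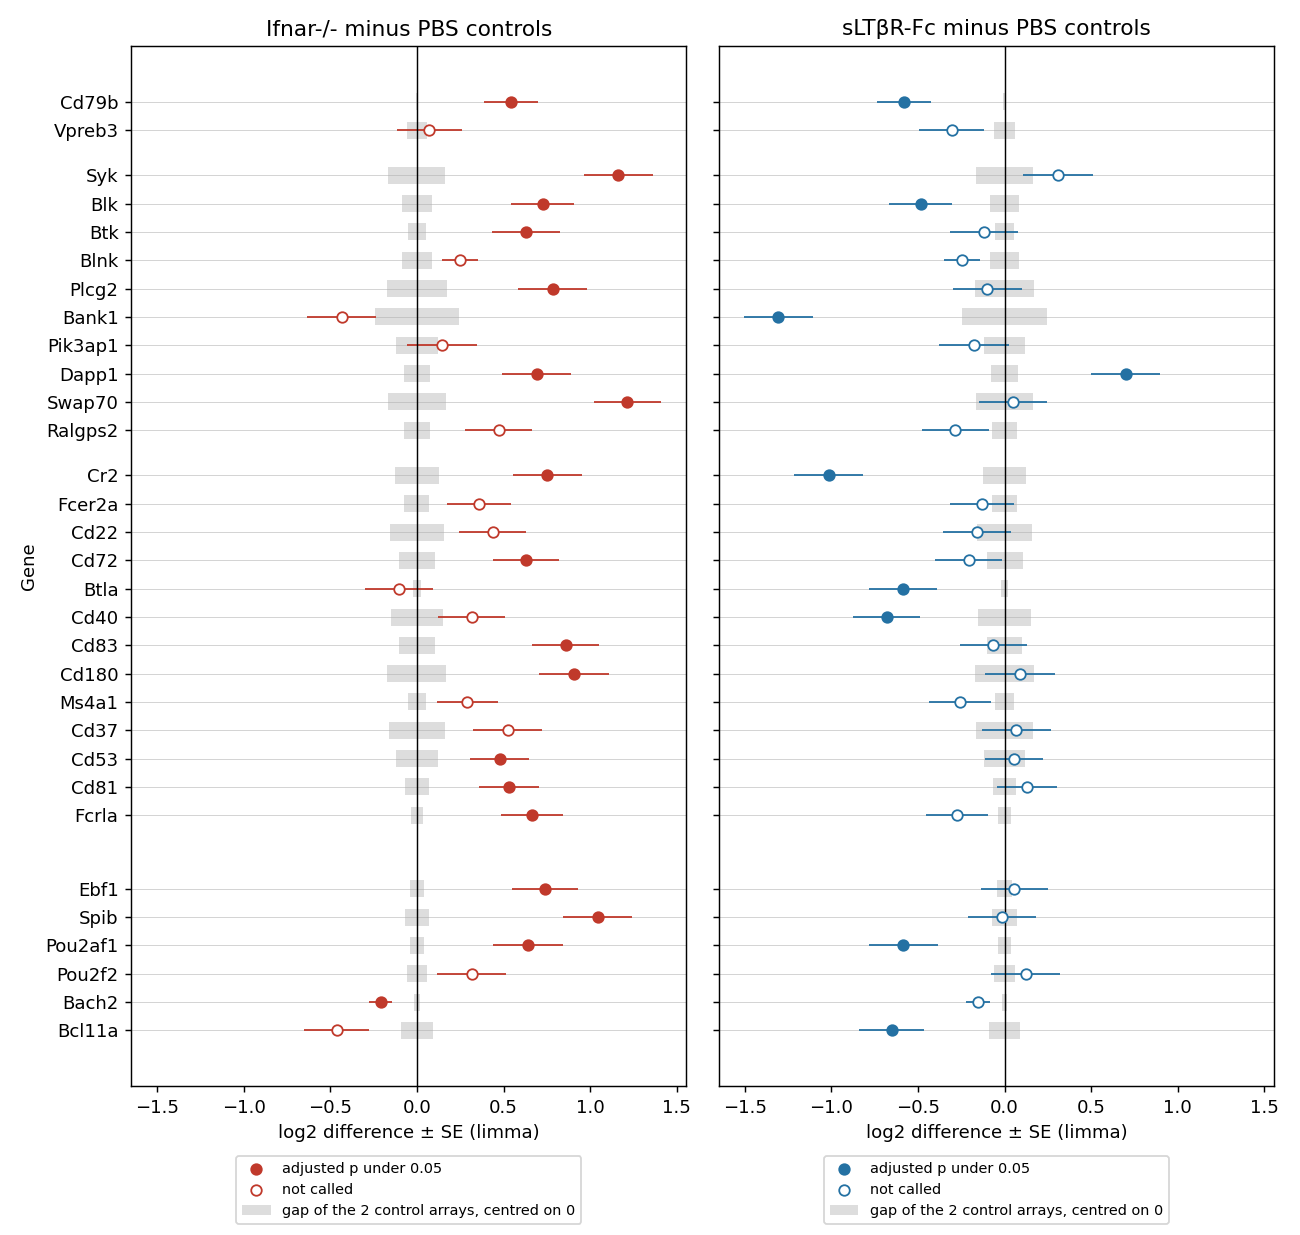
log2 difference from the mean of the PBS controls, with the SE of limma's fit, for 31 B cell genes on the Ifnar-/- array (left) and the sLTβR-Fc array (right). Filled circles are genes with an adjusted p under 0.05 and grey bars the gap of the 2 control arrays, drawn centred on 0. On the left 17 filled circles lie right of 0 and 1 left of it, and on the right 8 lie left of 0 and 1, Dapp1, right of it.

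Further probes differed from the brightest probe for several members. Of 28 further probes with a mean above background, from 16 members, 21 lay above and 5 below both controls on the Ifnar-/- array, against 42.6% and 35.6% of all such probes. On the sLTβR-Fc array 2 lay above and 21 below, against 41.2% and 39%. Bcl11a was split on the Ifnar-/- array. Its second probe read 976 there, against 631 and 589.6 on the controls, a log2 difference of 0.68 where the brightest gave -0.46.

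Swap70 probes spread more widely than those of Bcl11a on the Ifnar-/- array. The next 2 in brightness lay at 1.03 and 0.55 on the Ifnar-/- array, while a dim one, at 207 against 309 and 251 on the controls, lay at -0.42. After sLTβR-Fc the dim one read 162 and lay at -0.78. Spib rested on 1 probe, since its other, within 106 to 119 on the 4 arrays and so near background, lay at -0.015. Ebf1 had a probe at 0.39 and 1 at -0.16 beside its 0.74. The probe at -0.16 read 119.5 after sLTβR-Fc, against 239 and 169 on the controls, a log2 difference of -0.75. For Blk the second probe gave a larger difference, 1.40, with 1582 in Ifnar-/- cells against 593 and 606 in the controls.

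After sLTβR-Fc the second probe of Cd22 read 632, against 1434 and 1157 on the controls, a log2 difference of -1.03 where the brightest probe gave -0.16. Dim probes of Cd180, Fcrla, Cd40 and Fcer2a, with intensities of at most 137, lay at 0.11, -0.056, -0.19 and -0.17 in Ifnar-/- cells, each over 0.5 below the brightest probe of its gene. The second Cd40 probe lay at -0.040 after sLTβR-Fc and the second Bcl11a probe at -0.061. Whether such probes read different transcripts was not tested.

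**Figure D4:**
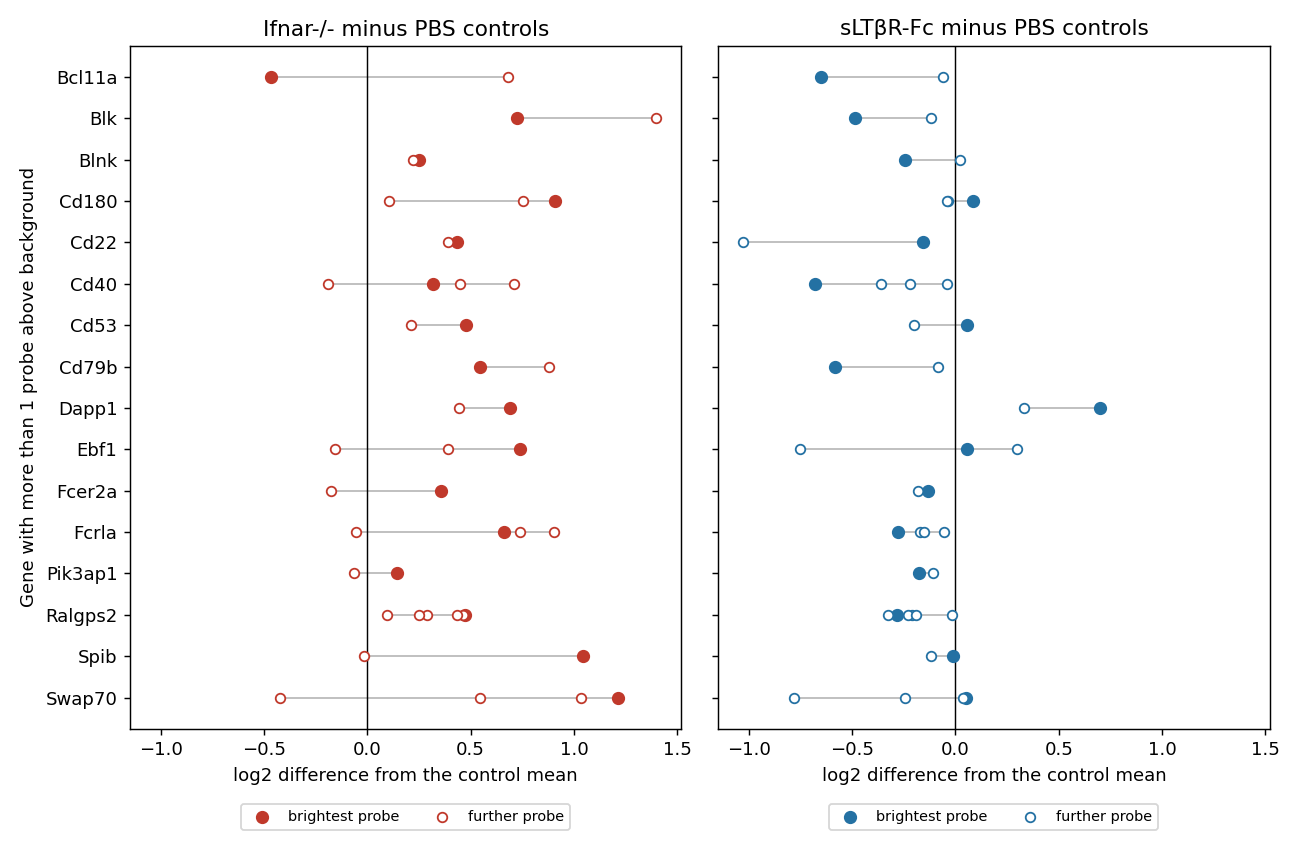
log2 difference from the control mean for every probe of the 16 B cell genes with more than 1 probe above background, on the Ifnar-/- array (left) and the sLTβR-Fc array (right). Filled circles are the brightest probe and open circles further probes. Bcl11a probes lie at -0.46 and 0.68 on the left, and Cd22 probes at -0.16 and -1.03 on the right.

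Set directly against each other, without the shared controls, the Ifnar-/- array was above the sLTβR-Fc array for 29 of 31 members, against 48.1% of all genes, and below it for 1, Dapp1, against 51%. The median log2 difference was 0.75. The 6 members 2-fold or more higher on the Ifnar-/- array, a size reached by 0.837% of genes, were Cr2 (3.41-fold), Pou2af1 (2.34-fold), Blk (2.31-fold), Swap70 (2.24-fold), Cd79b (2.18-fold) and Spib (2.08-fold). 0 members were 2-fold or more lower, against 1.84% of genes. With 1 array on each side these differences have no replicate check and no test.

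Other genes of receptor signalling moved in both directions. Of 42 such genes listed 31 were measured, with a median log2 difference of 0.15 on the Ifnar-/- array. There limma called 7 of them higher and 4 lower, where 7.62% and 8.01% of all genes were called. Those higher were the inhibitory Fc receptor gene Fcgr2b (log2 1.17), the adaptor Dok3 (1.14), the GTPase Rac2 (1.00), the PI3-kinase subunit Pik3cd (0.91), the exchange factor Vav2 (0.76) and the phosphatases Inpp5d (0.58) and Ptpn6 (0.55). Pik3r1, the regulatory subunit of PI3-kinase, was lower, at 835 on the Ifnar-/- array against 2653 and 2642 on the controls (log2 -1.67 ± 0.19, SE, limma adjusted p = 1.49e-10). Nfatc2 (-0.96), Pik3cg (-0.66) and Cd5 (-0.27), genes that T cells also express, were lower as well.

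After sLTβR-Fc 4 of these 31 genes were called higher and 7 lower, where 10.5% and 7.96% of all genes were called. Their median was -0.023. Lower were Nfatc2 (-1.19), the ubiquitin ligase Cblb (-1.05), the calcium sensor Stim1 (-0.62), the phosphatase Ptprc (-0.61), Nfatc1 (-0.60), Pik3r1 (-0.57) and Cd5 (-0.31). Higher were Dok3 (0.81), the calcium channel Orai1 (0.58), the Btk-binding protein Sh3bp5 (0.46) and the adaptor Grb2 (0.34).

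Genes of other lists moved with the B cell genes on the Ifnar-/- array. There 44.1% of all genes lay above both controls and 7.62% were called higher. All 10 MHC class II genes lay above both controls, 8 were called higher, and their summed intensity was 59274 on that array, against 38187 and 35911 on the controls. Of 8 conventional dendritic cell markers 7 lay above both controls and 6 were called, with sums of 3947 against 3115 and 3069.8, and none was at background on all arrays. NK cell markers had a median of 0.60, with 3 of 6 called higher, Nkg7 (log2 1.28), Ncr1 (1.21) and Klrk1 (0.77), while their sum was 16882, against 16749 and 17640, and their median gap between the controls was 0.39. The members themselves summed to 67625 in Ifnar-/- cells and 39508 after sLTβR-Fc, against 48811 and 46879 on the controls. What part other cells had in the B cell result, and B cells in these lists, was not tested.

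T cell markers lay on the other side, 9 of 10 below both controls on the Ifnar-/- array and 9 of 10 on the sLTβR-Fc array, with 7 and 6 called lower and medians of -0.42 and -0.50. Over all genes 34.9% and 35.7% lay below both controls, and 8.01% and 7.96% were called lower. The T cell sums were 10727 and 9964, against 15307 and 20705 on the controls. Neutrophil markers, 7 of 9 below both controls in Ifnar-/- cells and 5 of 9 above both after sLTβR-Fc, summed to 17276 and 57466, against 46337 and 31796 on the controls. Over all genes 34.9% lay below both and 45% above both on these arrays. Retnlg went the other way in Ifnar-/- cells, at 1286 against 300 and 268 (log2 2.18). All 9 were lower on control 2 than on control 1, by a median log2 difference of -0.43. Markers of plasmacytoid dendritic cells, a cell type that shares Spib and Bcl11a with B cells, had medians of -0.0064 and 0.073. Of the 7 measured, limma called Pld4 (log2 1.16) and Ly6d (1.11) higher and Klk1 (-0.59) lower in Ifnar-/- cells. Pld4 and Ly6d are also transcribed in B cells. Over all genes 7.62% were called higher and 8.01% lower there. After sLTβR-Fc Pld4 was again called higher (0.61), against 10.5% of all genes. Siglech, the defining gene of plasmacytoid dendritic cells, gave 3047 in Ifnar-/- cells, 3546 after sLTβR-Fc and 3335 and 2809 in the controls. Ccr9 was not above background on any array.

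**Figure D5:**
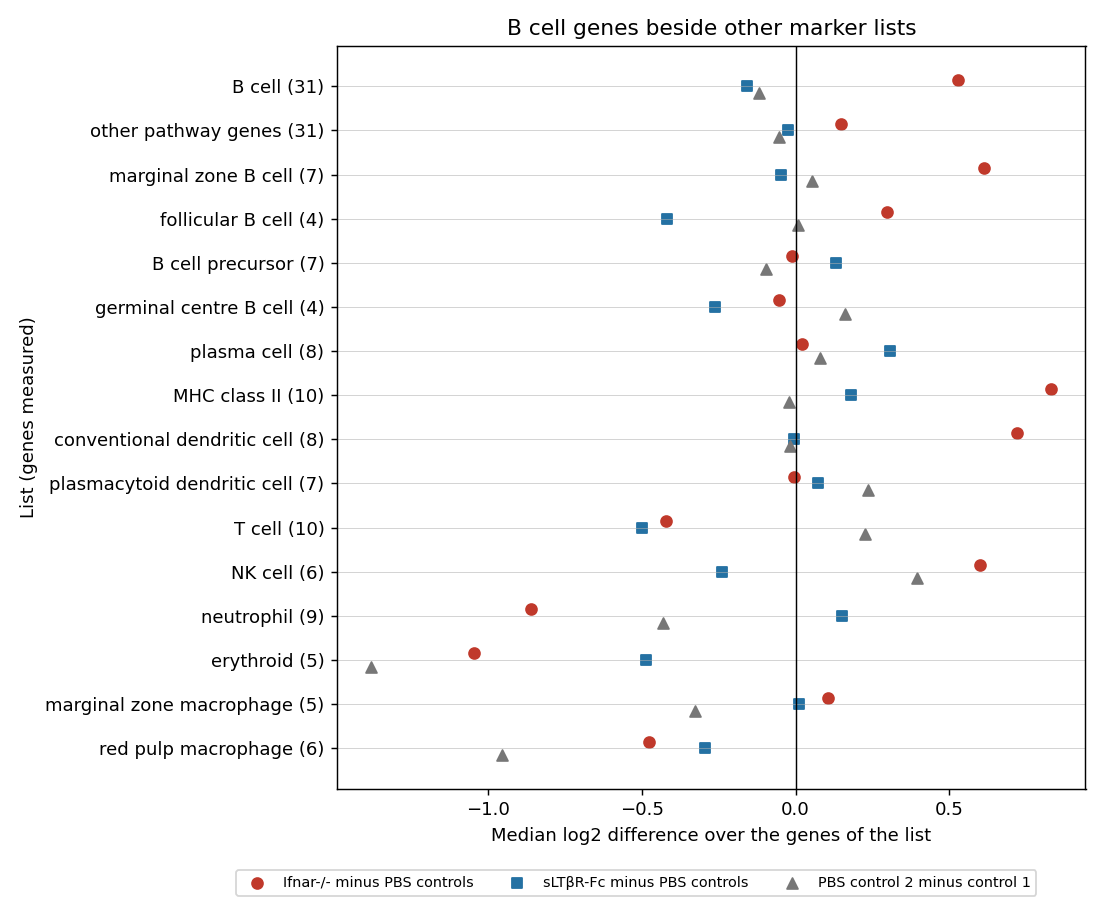
Median log2 difference of the B cell genes and of 15 other lists (number of genes measured in brackets) on the Ifnar-/- array (circles) and the sLTβR-Fc array (squares) from the PBS controls, and of control 2 from control 1 (triangles). Lists right of 0 on the Ifnar-/- array include B cell, marginal zone B cell, follicular B cell, MHC class II and conventional dendritic cell genes. Their median control differences lie within 0.12 of 0, as signed values in which opposite gaps can cancel. The median absolute control gap was 0.17 for B cell genes, against 0.10 for all genes. Erythroid and red pulp macrophage lists differ by -1.38 and -0.96 between the controls themselves.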

How the data were processed

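RNA of sorted spleen cells was labelled as biotin cRNA and hybridised to Illumina single-colour bead arrays, per the labels' protocols, and the submitters' processing notes name GenomeStudio 2011.1. The authors deposited 1 linear intensity per probe and array. Any background subtraction or scaling was not given in the sources used here, and the values hold background (most frequent intensity 99.0 to 108).

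Probes were named through the platform annotation (34885 with 1 symbol, 18 with several, 10378 with none). A background limit per array was set at the 95% point of noise mirrored about the most frequent intensity (106 to 115). Intensities were quantile normalised and converted to log2 with limma 3.58.1 (R 4.3.3). Genes whose brightest probe had a mean above 111, the mean limit, were fitted with 3 group means and eBayes with a trend (1 residual degree of freedom, prior of 69.4), and the Benjamini-Hochberg adjustment ran over 12419 genes. An SE is that of the moderated fit. Counts against each control used values raised to 111. The text names all members, those called or central to the receptor with values on every array. Further probes are named where they differ from the brightest by over 0.5, and other genes of the pathway where called. A bound for a dim gene is the control mean over the lowest normalised signal above background. Promoter sequences are RefSeq's for GRCm38.p6.

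The members, lists and fit were chosen with earlier results of these data known. Precision is limited by there being 4 arrays.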

Additional observations from a re-analysis of the deposited data

How the results depend on the processing

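The median of the members lay above 0 on the Ifnar-/- array and below 0 on the sLTβR-Fc array under each scaling, filter and probe rule tried and without either control. It moved by more than the spread between the controls with the values as deposited (0.24 and -0.78), with median scaling (0.35 and -0.70) and, for sLTβR-Fc, with 75th percentile scaling (-0.46). The direct Ifnar-/- minus sLTβR-Fc median moved to 1.13, 1.16 and 1.03 under those scalings and to 0.58 with probes averaged.

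limma's counts varied more. Members called higher on the Ifnar-/- array numbered 17, against 3 as deposited, 3 with median scaling, 9 without the trend and 0 in the floored fit. Over all genes, in that order, 946 of 12419, 171 of 12377, 179 of 12396, 317 of 12419 and 0 of 14654 were called higher. The 1 member called lower there, Bach2, was joined by Bcl11a as deposited (2 called). With 75th percentile scaling Bach2 was lost, and Bcl11a and Bank1 were the 2 members called. None (0) was called lower with median scaling, no filter, no trend, the floored fit and genes above background on all 4 arrays, where Bach2 drops out. Members called lower on the sLTβR-Fc array numbered 8, against 22 as deposited, 16 with median scaling, 14 with 75th percentile scaling, 5 with averaged probes, 5 with no filter, 2 without the trend and 0 in the floored fit. The 1 member called higher on that array, Dapp1, was lost (0) as deposited, with median or 75th percentile scaling and in the floored fit. As deposited, sLTβR-Fc differences of Swap70 and Dapp1 turned to -0.67 (called) and -0.0060. The floored fit called 0 of 14654 genes, with a lowest limma adjusted p of 0.213 and 0.156. Its prior had 0.955 degrees of freedom, against 69.4 in the main fit, and the members' medians there were 0.53 and -0.14. Syk, Swap70 and Spib on the Ifnar-/- array and Bank1 and Cr2 on the sLTβR-Fc array kept their call in 7 of the 8 other fits counted per gene, all but the floored one. The fit without the trend was not counted per gene and is not among the 8. Over all members, 62 of 62 differences kept their side of the threshold with normexp, 55 with no filter and 32 as deposited. The cause of these changes was not tested.

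Counts by size moved as well. Members 2-fold higher on the Ifnar-/- array were 0 as deposited and with median or 75th percentile scaling, 3 with normexp, and 1 to 4 leaving out a control, the 4 being without control 1. On the sLTβR-Fc array, members 2-fold lower were 6 as deposited, 5 with median and 2 with 75th percentile scaling, and 1 to 2 leaving out a control, the 2 being without control 2. Members above both controls were 0, 1 and 2 under these scalings, and 11 lay above the remaining control without control 1. Those below both were 31 and 29 under the first 2 scalings. Shares over all genes for these counts were taken only in the main setting. No paired analysis was possible because the groups compared share fewer than 2 replicate numbers, and limma could not be run without a control because no residual degree of freedom remains.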

Other observations

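Lists of B cell stages other than the members were set beside them, chosen like them with earlier results known. Of 7 measured marginal zone B cell genes 6 were called higher on the Ifnar-/- array by limma, against 7.62% of all genes, at a median log2 difference of 0.61. Mzb1, an endoplasmic reticulum protein of marginal zone B cells and plasma cells, gave 4419 there and 2523 after sLTβR-Fc, against 1822 and 2065 in the controls. Dtx1, a target of Notch signalling in these cells, read 4653 and 1776, against 2214 and 2272. Plac8 was called higher on both arrays (log2 0.59 and 0.82) and Cr2, a member on this list too, higher and lower. S1pr3 was not above background on any array.

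Of the 4 measured follicular B cell genes, the homing receptor genes Cxcr5 and Ccr7 were called lower on the sLTβR-Fc array (log2 -0.73 and -0.71). Klf2 was called higher (0.64, and 0.71 in Ifnar-/- cells). Over all genes 7.96% were called lower and 10.5% higher after sLTβR-Fc, and 7.62% higher in Ifnar-/- cells. Of 8 measured plasma cell genes 4 were called higher on the sLTβR-Fc array, against 10.5% of all genes. They were Irf4 (0.67), Xbp1 (0.82), Jchain (0.55) and Tnfrsf17 (0.24), while Sdc1 and Prdm1 lay at -0.16 and -0.11. In Ifnar-/- cells Irf4 (0.84) and Mzb1 (1.19) of these 8 were called higher, against 7.62% of all genes. B cell precursor and germinal centre lists had medians of -0.013 and -0.055 in Ifnar-/- cells and 0.13 and -0.26 after sLTβR-Fc. Of the 7 precursor genes measured, Cd93 (1.03) and Sox4 (1.08) were called higher after sLTβR-Fc, against 10.5% of all genes. Both are also transcribed outside the B lineage. Of the 4 germinal centre genes measured, S1pr2 was called lower in Ifnar-/- cells (-0.73), against 8.01% of all genes.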
